A study of Mus musculus with 15 samples.

Results

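Sirt1 to Sirt7 are the 7 sirtuin genes of the mouse, and all 7 were found by symbol among the 46078 genes of the count table. Each carried enough reads in every library to be tested, from 103 counts at the lowest (Sirt4 in an aged IgG2a-injected mouse) to 2392 at the highest (Sirt2 in an aged aPD1ab-injected mouse). The libraries are bulk mRNA-Seq of the podocyte fraction, the cells of a digested kidney cortex that were held back by magnetic beads after labeling with antibodies to nephrin, a protein of the podocyte slit diaphragm. They came from male C57BL/6J mice in 3 groups, and 13 of the 15 columns of the count table could be tied to a group. Young mice were 4 months old and received no injection (n = 5). Aged mice were 21 months old and were injected intraperitoneally every week for 8 weeks at 12 mg/kg, either with aPD1ab, the anti-PD-1 antibody RMP1-14 (n = 4), or with the isotype control IgG2A antibody 2A3 (IgG2a, n = 4). The titles of the aPD1ab samples give 47 days. PD-1 is an inhibitory receptor of T cells, and the groups ask what age changes in this fraction and what blocking PD-1 changes in aged mice. Young mice had no control injection, so age and injection cannot be told apart between them and either aged group.

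Sirtuins are enzymes that remove acetyl and other acyl groups from lysines of proteins and consume NAD in each reaction, so that their activity depends on the supply of NAD as well as on the amount of enzyme. SIRT1, SIRT6 and SIRT7 are mainly nuclear, SIRT2 is mainly cytosolic, and SIRT3, SIRT4 and SIRT5 work in mitochondria. In the kidney they are best known for their roles in mitochondrial metabolism of tubular cells and in the stress response of podocytes, and they are widely studied in aging.

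The libraries held 19912969 to 32717100 counted reads. One of them, aged IgG2a replicate 1, stood apart from its group. On the first principal component, which held 40.7% of the variance, it had a value of -16.4. Young libraries ranged from -41.4 to -24.6 there, and the rest of the aged IgG2a group from 71.6 to 84.2. Results that rest on it are therefore given with it and without it. Among the aged aPD1ab libraries replicate 2 also stood apart, at -64.9, with the others at -13.9 to 10.9. Between the aged groups the mitochondrial sirtuin genes are also given without that library. The nephrin sort did not leave podocytes alone. The summed level of 8 podocyte markers, in CPM (counts scaled to library size), was 872 to 1413 in young, 522 to 722 in aged IgG2a and 267 to 857 in aged aPD1ab libraries. The summed level of 12 proximal tubule markers was 10659 to 16149 in young libraries, 7861 in aged IgG2a replicate 1, 1528 to 2372 in the other 3 aged IgG2a libraries and 8044 to 22928 in aged aPD1ab libraries. For 7 macrophage markers it was 1631 to 3070 in young libraries, 2601 in aged IgG2a replicate 1, 6464 to 7786 in the other 3 and 1977 to 4456 with aPD1ab. The summed level of 5 B and plasma cell markers was 189 to 453 in young and 2532 to 5728 in aged IgG2a libraries, highest in replicate 1. With aPD1ab it was 425 in replicate 2 and 3127 to 5641 in the others. No marker on these lists was at 0 in any library. In such bulk samples, fewer cells of a type and less RNA per cell cannot be told apart.

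Of the 7 genes, Sirt3 varied most between libraries, from 13.1 to 51.6 CPM, and it was lowest in aged IgG2a-injected mice other than replicate 1. Sirt3 encodes the main deacetylase of the mitochondrial matrix. In GRCm38 it lies on the minus strand at chr7:140863666-140882309 and is annotated as protein coding. It shares 342 bp of exon with Psmd13 and 418 bp with Ric8a, both on the opposite strand, and reads there cannot be told apart because the strand setting of the counting is not given in the sources used here. Sirt3 was at 32.7, 29.1, 35.6, 32.6 and 30.6 CPM in the young libraries. It was at 34.2 CPM in aged IgG2a replicate 1 and at 13.1, 15.0 and 16.2 CPM in the other 3 aged IgG2a libraries. The aged aPD1ab libraries held 30.7, 51.6, 29.8 and 39.1 CPM. All libraries but those 3 lay at or above 29.1 CPM, and aged IgG2a replicate 1 lay inside the young range.

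Sirt4 encodes a mitochondrial sirtuin that restrains glutamate dehydrogenase (chr5:115478010-115484725, minus strand). It was at 10.3, 8.67, 10.04, 8.73 and 7.95 CPM in young mice. In aged IgG2a-injected mice it was at 9.29 CPM in replicate 1 and at 5.23, 6.30 and 7.12 CPM in the others. With aPD1ab it was at 9.17, 11.2, 8.90 and 10.9 CPM. The same 3 aged IgG2a libraries were the lowest, as for Sirt3. Sirt5 encodes the enzyme that removes succinyl and malonyl groups (chr13:43365496-43395203, plus strand). It was at 10.2, 9.01, 11.4, 10.7 and 8.21 CPM in young mice, and at 11.1, 10.1, 11.5 and 9.98 CPM with aPD1ab. In the aged IgG2a group replicate 1 held 12.4 CPM, the highest Sirt5 level of all 13 libraries, and the others held 5.32, 6.30 and 7.19 CPM, the lowest. No other gene shares exon bases with Sirt4 or Sirt5 in the annotation.

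Over all mapped libraries, none of the 7 sirtuin genes differed between aged IgG2a and young mice at an adjusted p under 0.05 (edgeR's quasi-likelihood test, adjusted over all genes tested). The background was 17.4% of 15953 genes called. At an unadjusted p under 0.05 there were 3, namely Sirt2, Sirt3 and Sirt7 (36.2% of all genes), and DESeq2 called 2 (Sirt2 and Sirt3, 28% of all genes). With limma voom and sample quality weights there were 5 (all but Sirt1 and Sirt6), where 46.5% of all genes were called. The log2 fold change was -0.65 ± 0.25 (SE) for Sirt3, -0.33 ± 0.17 for Sirt4 and -0.28 ± 0.23 for Sirt5, with edgeR adjusted p values of 0.0896, 0.191 and 0.392. The median over the 7 genes was 0.21, beside 0.038 for all genes tested. Ranges of the 2 groups overlapped for every sirtuin gene, while 14.5% of all genes tested had groups that did not overlap.

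Without aged IgG2a replicate 1, 4 of the 7 differed from young mice, against a background of 45.6% of 16216 genes called. Sirt3 fell by 1.07 on the log2 scale (SE 0.10, edgeR adjusted p = 2.4e-05), Sirt4 by 0.51 (SE 0.15, adjusted p = 0.0168) and Sirt5 by 0.61 (SE 0.15, adjusted p = 0.00812). Sirt7 rose by 0.49 (SE 0.10, adjusted p = 0.00312). The groups did not overlap for these 4 genes, which was also so for 46.8% of all genes tested. With so many genes past the threshold, the share of sirtuin genes called was not far from that of genes in general. Aged IgG2a replicate 1 was singled out by its values in these same data, near the young libraries. The p values without it depend on that choice. Leaving out any 1 other library left 0 sirtuin genes called, where 3.4% to 9.54% of all genes were called. The 3 libraries behind the 4 calls are those with the lowest proximal tubule and the highest macrophage marker levels. With a score of the proximal tubule markers as a covariate, and all libraries in, the log2 fold change of Sirt3 turned to 0.44, that of Sirt4 to 0.24, that of Sirt5 to 0.62 and that of Sirt7 to -0.15, none of them at an adjusted p under 0.05, and 0.176% of all genes were called. At an unadjusted p under 0.05 that fit had 2, Sirt3 and Sirt5, beside 15.8% of all genes. The score and the group cannot be told apart in it, so the part of tubule cells was not tested.

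**Figure D1:**
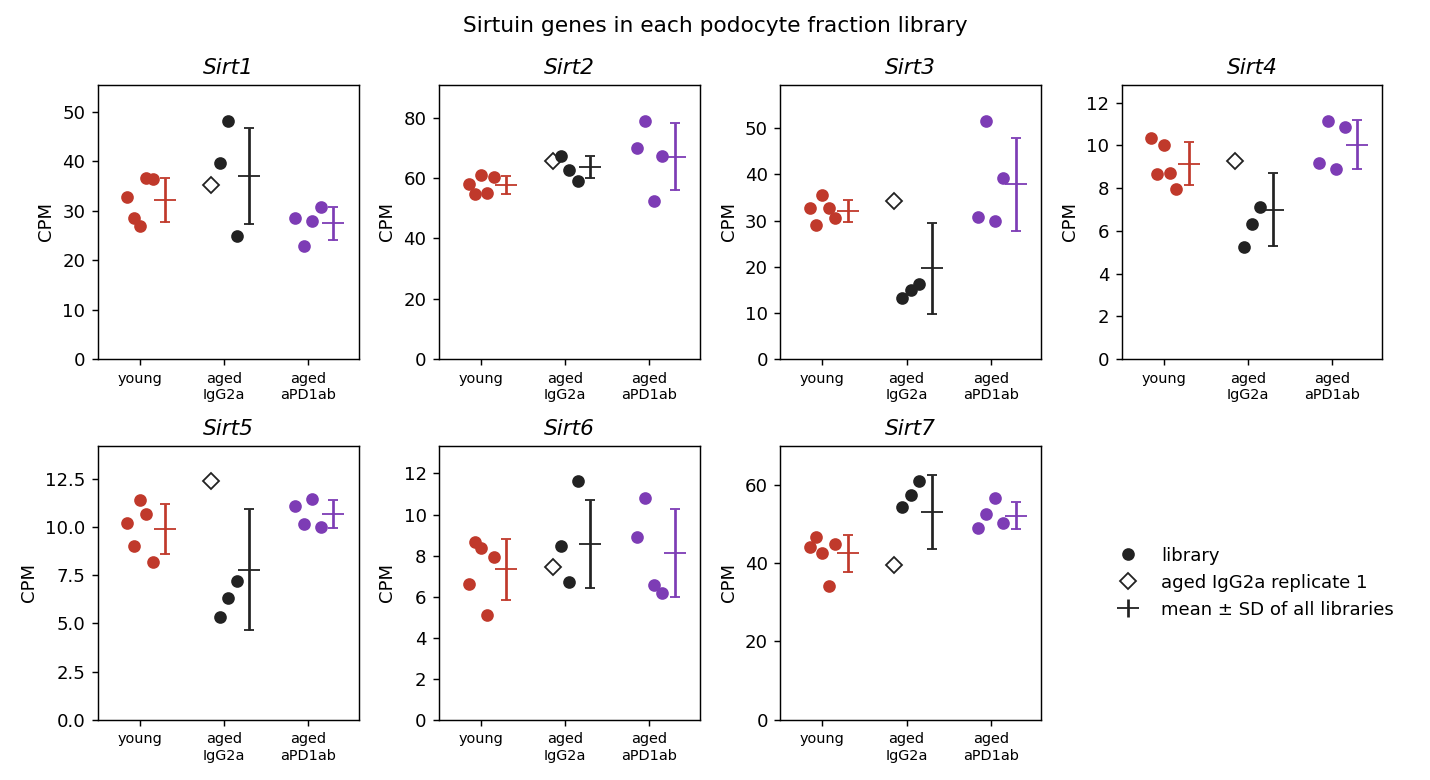
Level of each sirtuin gene in CPM (vertical axes, from 0) in every library of the 3 groups. Points are libraries, the open diamond is aged IgG2a replicate 1, and bars give the mean ± SD of all libraries of a group. For Sirt3, Sirt4 and Sirt5 the 3 other aged IgG2a libraries lie below all young and aPD1ab libraries, and the diamond does not.

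Between the aged groups, 0 of the 7 sirtuin genes differed at an adjusted p under 0.05 by edgeR over all mapped libraries, and the background was also 0% of 15530 genes. At an unadjusted p under 0.05 there were 2, Sirt3 and Sirt4 (beside 28% of all genes). DESeq2 called 1 (Sirt3, beside 15.9% of all genes), and so did a single edgeR fit of all 3 groups (Sirt3, beside 17.5%). With limma voom and sample quality weights there were 3 (Sirt3, Sirt4 and Sirt5, beside 39.7%). With aPD1ab, Sirt3 was higher by a log2 fold change of 0.95 ± 0.32 (SE, edgeR adjusted p = 0.123), Sirt4 by 0.51 ± 0.20 (adjusted p = 0.142) and Sirt5 by 0.44 ± 0.25 (adjusted p = 0.263). Over the 7 genes the median was 0.063, beside -0.011 for all genes tested. No sirtuin gene separated the aged groups without overlap, which 12% of all genes did. Without aged aPD1ab replicate 2, Sirt3 was higher by 0.74 ± 0.32 (SE, edgeR adjusted p = 0.281). Sirt4 was then higher by 0.44 ± 0.22 and Sirt5 by 0.45 ± 0.28.

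Leaving out aged IgG2a replicate 1, 3 of the 7 were called, all higher with aPD1ab, where the background was 30.4% of 15770 genes called and 17.1% called higher. Sirt3 rose by 1.34 on the log2 scale (SE 0.22, edgeR adjusted p = 0.00777), Sirt4 by 0.67 (SE 0.18, adjusted p = 0.0268) and Sirt5 by 0.74 (SE 0.16, adjusted p = 0.0131). The groups did not overlap for these genes, and 43.2% of all genes tested did not overlap either. With the proximal tubule score as a covariate and all libraries in, replicate 1 included, the log2 fold change was -0.026 for Sirt3, 0.051 for Sirt4 and -0.039 for Sirt5, and 0% of all genes were called. The score and the group cannot be told apart in that fit either. The p values without aged IgG2a replicate 1 depend on the choice to leave it out. This comparison and the one with young mice use the same aged IgG2a libraries, so that low values in those libraries enter both.

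**Figure D2:**
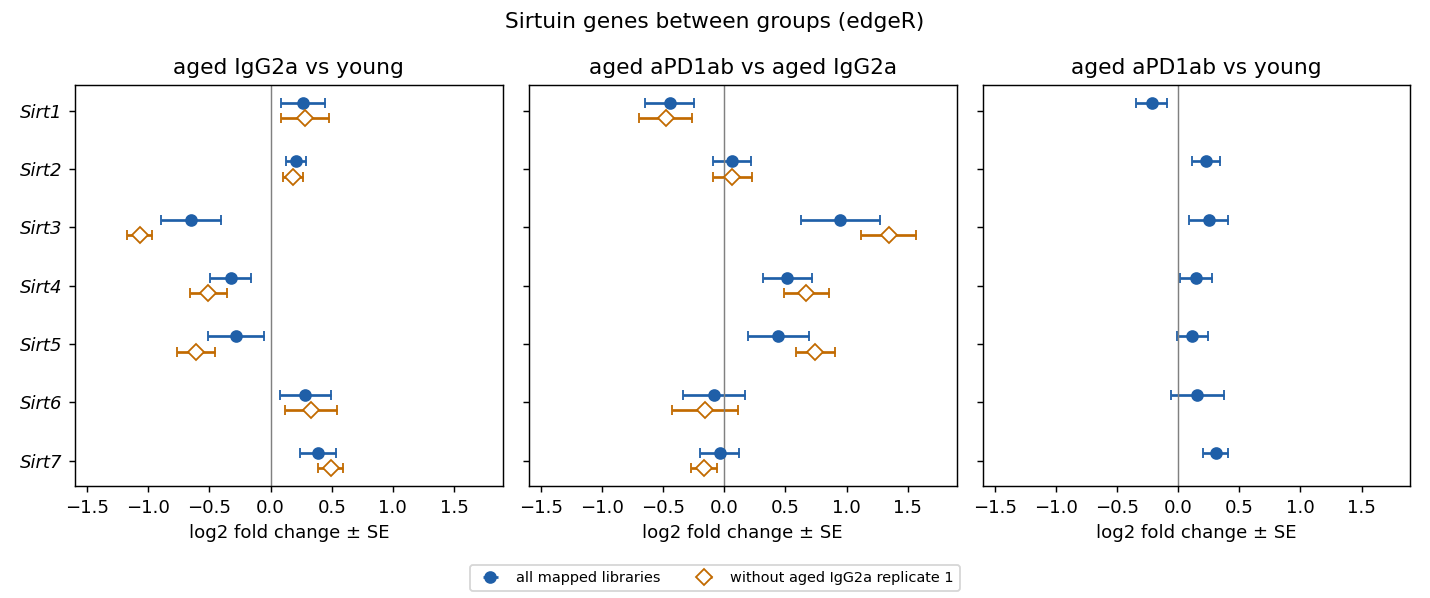
Log2 fold change ± SE (horizontal axes) of the 7 sirtuin genes in 3 comparisons, by edgeR, with all mapped libraries (filled circles) and without aged IgG2a replicate 1 (open diamonds). Sirt3 moves most when that library is left out, from -0.65 to -1.07 against young mice and from 0.95 to 1.34 between the aged groups.

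The lowest and the highest Sirt3 levels came with the lowest and the highest sums of proximal tubule markers, but the libraries between them did not follow that order. The 3 aged IgG2a libraries with summed tubule markers of 1528 to 2372 CPM held 13.1 to 16.2 CPM of Sirt3. The aPD1ab library with the highest tubule sum of all, 22928 CPM, held the most Sirt3, 51.6 CPM, and the fewest podocyte markers, 267 CPM. Aged IgG2a replicate 1 was near the aPD1ab libraries in both measures, at 7861 CPM of tubule markers. Young replicate 2, at 14003 CPM of tubule markers, held 29.1 CPM of Sirt3, less than the 39.1 CPM of aged aPD1ab replicate 4 at 8255 CPM. Sirt5 did not follow in the same way at the upper end, since that aPD1ab library held 10.1 CPM. In the covariate fits with aged IgG2a libraries the score and the group cannot be told apart. The part of tubule cells in these differences was therefore not tested.

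**Figure D3:**
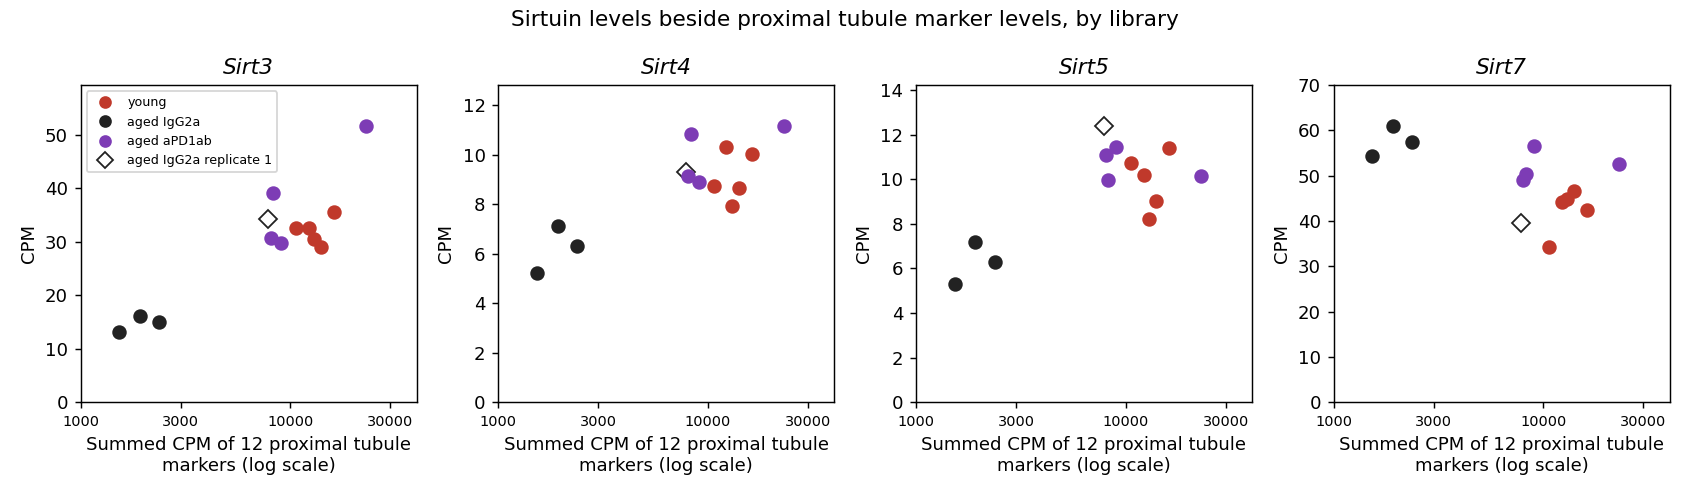
CPM of Sirt3, Sirt4, Sirt5 and Sirt7 (vertical axes, from 0) against the summed CPM of 12 proximal tubule markers (horizontal axes, log scale), 1 point per library, colored by group, with aged IgG2a replicate 1 as an open diamond. The 3 aged IgG2a libraries at 1528 to 2372 CPM of tubule markers are the lowest for Sirt3, Sirt4 and Sirt5, and hold 54.3 to 60.9 CPM of Sirt7.

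Among the nuclear sirtuins, Sirt7, whose product acts on chromatin and ribosomal RNA genes (chr11:120618372-120625240, minus strand), ran the other way. It shares 124 bp of exon with Mafg and 54 bp with Mir6936, both on the same strand. Sirt7 was at 44.2, 46.6, 42.5, 34.2 and 44.9 CPM in young mice. In aged IgG2a-injected mice it was at 39.6 CPM in replicate 1 and at 54.3, 57.4 and 60.9 CPM in the others, and with aPD1ab it was at 49.1, 52.7, 56.7 and 50.3 CPM. All 4 aPD1ab libraries lay above all 5 young ones, as for 11.3% of all genes tested. The log2 fold change of aPD1ab against young mice was 0.31 ± 0.10 (SE, edgeR adjusted p = 0.0571), which missed the threshold, whereas DESeq2 called it (adjusted p = 0.0318). Against aged IgG2a it was -0.039 ± 0.16 (adjusted p = 0.89).

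Sirt1 encodes the most studied sirtuin, a deacetylase of transcription factors such as p53 and FOXO proteins (chr10:63319005-63381704, minus strand). An antisense gene, Gm16145, shares 65 bp of its exons, and Dnajc12 starts 739 bp away in the opposite direction. Sirt1 was at 32.7, 28.5, 26.9, 36.7 and 36.4 CPM in young mice, and at 35.3, 39.7, 48.3 and 24.8 CPM in aged IgG2a-injected mice. With aPD1ab it was at 28.5, 22.8, 28.0 and 30.7 CPM. The aged IgG2a group spread most, and it held both the second lowest and the highest Sirt1 level of all libraries. Sirt1 was not called in any of the 3 comparisons by any of the settings tried. Its log2 fold change was 0.27 ± 0.18 (SE, edgeR adjusted p = 0.31) for aged IgG2a against young mice, -0.45 ± 0.20 (adjusted p = 0.184) for aPD1ab against IgG2a and -0.22 ± 0.13 (adjusted p = 0.234) for aPD1ab against young mice.

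Sirt6 encodes a histone deacetylase with roles in DNA repair and glucose metabolism (chr10:81621785-81627797, minus strand), and Ankrd24 starts 743 bp away in the opposite direction. It ranged from 5.10 to 8.64 CPM in young mice, from 6.73 to 11.6 CPM in aged IgG2a-injected mice and from 6.18 to 10.8 CPM with aPD1ab. The 3 ranges overlapped, and its log2 fold changes, 0.29, -0.083 and 0.16 in the same order of comparisons, were each within 1.5 times their SE of 0.21, 0.25 and 0.21.

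The cytosolic Sirt2, a tubulin deacetylase by its best known role (chr7:28766735-28788661, plus strand), was at 58.0, 54.7, 60.9, 55.0 and 60.4 CPM in young mice. It was at 65.7, 67.5, 62.9 and 59.2 CPM in aged IgG2a-injected mice and at 69.8, 79.1, 52.3 and 67.2 CPM with aPD1ab. The lowest Sirt2 level of all libraries and the highest were both aPD1ab libraries. Its log2 fold change against young mice was 0.21 ± 0.084 (SE, edgeR adjusted p = 0.105) with IgG2a and 0.23 ± 0.12 (adjusted p = 0.187) with aPD1ab. Without aged aPD1ab replicate 3, the library at 52.3 CPM, the second of these was 0.33 ± 0.090 (adjusted p = 0.0345). Nfkbib, on the opposite strand, shares 42 bp of exon with Sirt2.

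Between aPD1ab and young mice, 0 of the 7 sirtuin genes passed an adjusted p of 0.05 by edgeR, against a background of 22.4% of 15986 genes. At an unadjusted p under 0.05 there was 1 (Sirt7, beside 36.9%). DESeq2 also called 1 (Sirt7, beside 28.9% of all genes), and limma voom with sample quality weights called 0 (beside 24.9%). With the proximal tubule score as a covariate there were 3, Sirt2 (log2 fold change 0.28), Sirt3 (0.32) and Sirt7 (0.32), all higher with aPD1ab, where 33.1% of all genes were called. Without the covariate the difference was 0.25 ± 0.16 for Sirt3, 0.15 ± 0.13 for Sirt4 and 0.12 ± 0.13 for Sirt5 (log2 fold change ± SE). In that fit none of the 3 mitochondrial sirtuins was shown to differ between aged aPD1ab-injected and young mice. Of the 3, only Sirt3 passed the threshold with the covariate (edgeR adjusted p = 0.0262).

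Levels of different genes were compared per kilobase of exon. In young mice Sirt2 came first at 11.5 ± 0.579 CPM per kb (SD, n = 5), followed by Sirt7 at 8.25 ± 0.941, Sirt1 at 6.05 ± 0.836, Sirt3 at 5.38 ± 0.407, Sirt4 at 3.81 ± 0.418, Sirt6 at 2.63 ± 0.53 and Sirt5 at 1.63 ± 0.211. The ranges of Sirt7 and Sirt1, of Sirt1 and Sirt3, and of Sirt6 and Sirt5 overlapped over the libraries, so the ranges alone do not part these neighbors. Differences between genes within each library were not tested. Aged aPD1ab libraries had Sirt3 (6.33 ± 1.69 CPM per kb, SD, n = 4) before Sirt1 (5.16 ± 0.628), again with overlapping ranges. In aged IgG2a libraries Sirt3 followed Sirt2, Sirt7 and Sirt1 at 3.28 ± 1.64 CPM per kb (SD, n = 4), before Sirt6 at 3.07 ± 0.773 and Sirt4 at 2.91 ± 0.717. Without replicate 1 it came just before Sirt5 at 2.47 ± 0.257 (SD, n = 3), with Sirt6 and Sirt4 above it. The ranges of Sirt4 and Sirt3 overlapped there. Sirt5 was last in every group by length of exon, but Sirt6 was last in young and aPD1ab libraries when the longest transcript was used as the length. By the longest transcript, Sirt3 also came before Sirt4 in aged IgG2a libraries without replicate 1, and their ranges did not overlap. The place of Sirt3 below Sirt4 thus depended on the length used.

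**Figure D4:**
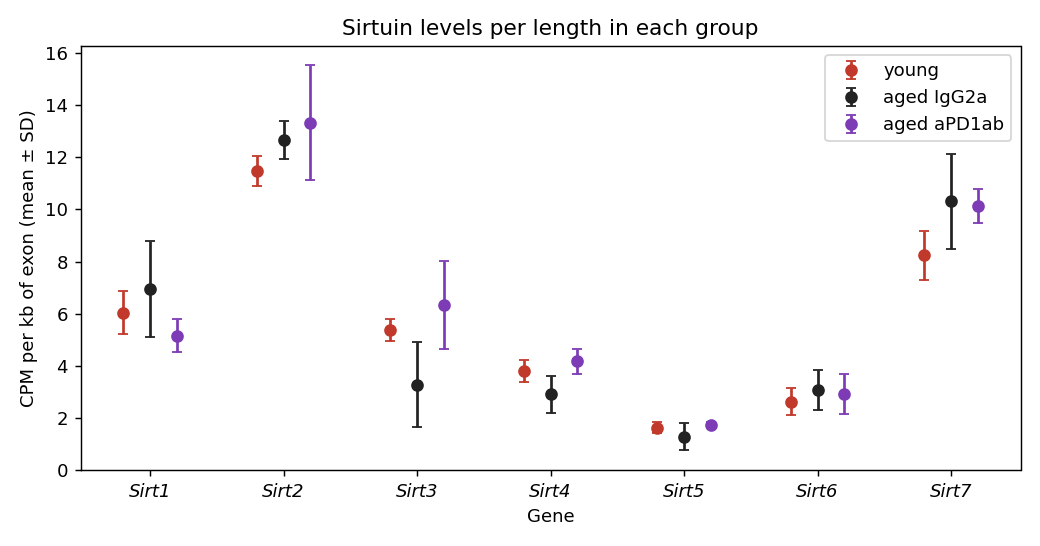
Mean ± SD of each sirtuin gene in CPM per kb of exon (vertical axis, from 0) for young (n = 5), aged IgG2a (n = 4) and aged aPD1ab (n = 4) libraries. Sirt2 is highest and Sirt5 lowest in all 3 groups, and Sirt3 has its widest bars in the aged groups.

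Within the family, Sirt3, Sirt4 and Sirt5 had the most similar profiles. The Pearson correlation of log2 CPM over the 13 libraries was 0.948 for Sirt3 and Sirt4, 0.872 for Sirt4 and Sirt5 and 0.851 for Sirt3 and Sirt5, and it was negative between Sirt7 and each of them (-0.498, -0.392 and -0.549 for Sirt3, Sirt4 and Sirt5). These are descriptions over libraries that share groups and marker levels. Over all genes, the closest to Sirt3 were Ggact (0.995), which encodes gamma-glutamylamine cyclotransferase, and Hadh (0.992), an enzyme of mitochondrial fatty acid oxidation. Closest to Sirt4 were Idh3g (0.954), a subunit of the NAD-dependent isocitrate dehydrogenase, and Dph6 (0.952), and closest to Sirt5 were Larp1b (0.950) and Gabarapl1 (0.942), an autophagy gene. Sirt7 was most like Vps16 (0.977) and Ewsr1 (0.960), Sirt1 most like Sertad2 (0.933) and Gm37800 (0.904), Sirt2 most like Tgm2 (0.913) and Eif2b3 (0.870), and Sirt6 most like Nat10 (0.916) and Dpagt1 (0.882).

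Sequence before a RefSeq start of Sirt3 and Sirt5 is shown because the mitochondrial sirtuin genes had similar profiles. RefSeq windows (GRCm38.p6) of 300 bases, 250 before and 50 after a start, were found for all 7 genes, 9 windows in all, and were searched on both strands for 6 motifs. These were the ETS core CGGAAG (bound by GABP), the half-site of estrogen-related receptors AAGGTCA, the NRF-1 site, the GC box GGGCGG, the E-box CACGTG and the CCAAT box CCAAT. Matches of 1 motif may overlap each other. Of all 32817 windows, 16.9% held the ETS core, 4.72% the ERR half-site, 4.59% the NRF-1 site, 35.6% the GC box, 7.15% the E-box and 37.4% the CCAAT box. For Sirt3, 2 ETS cores lie before the upstream start, both inside an exon of Psmd13, shown on the minus strand with the core in capitals (CTTCCG is the same core on the other strand), and for Sirt5 the 211 bases before the first annotated exon are shown on the plus strand, with the ERR half-site and the CCAAT box in capitals.
Sirt3 site at chr7:140882394-140882421: gggatggcgcaCGGAAGtgctcgctcac
Sirt3 site at chr7:140882378-140882405: gtgctcgctcaCTTCCGgcaccgcgggc
Sirt5 upstream at chr13:43365285-43365495: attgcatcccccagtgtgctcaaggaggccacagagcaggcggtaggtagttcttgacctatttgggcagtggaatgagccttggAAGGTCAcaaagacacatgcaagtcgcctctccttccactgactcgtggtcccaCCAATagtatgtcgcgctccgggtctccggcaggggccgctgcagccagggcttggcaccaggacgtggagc

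The ETS core also occurred in the windows of Sirt6 and Sirt7, and the window of Sirt4 held none of the 6 motifs. That window, chr5:115484248-115484547, lies inside the annotated Sirt4 gene, which starts at 115484725 on the minus strand. The bases before that annotated start were not searched. In the windows searched, the 3 mitochondrial sirtuin genes thus had no motif of the 6 in common. Sirt3, in the window of its downstream start, and Sirt5 both held the GC box and the CCAAT box. Of all windows, 35.6% held the first and 37.4% the second. A match describes letters in a window and not a bound site.

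Sirtuins need NAD, and the genes of NAD metabolism were followed as a list of 28, of which 24 could be tested against young mice. Of these, 9 differed between aged IgG2a and young mice over all mapped libraries, 2 higher and 7 lower, where 17.4% of all genes were called, 9.05% higher and 8.38% lower. The median log2 fold change of the list was -0.37, beside 0.038 for all genes tested. Of the lower genes, 5 belong to the route that makes NAD from tryptophan. Acmsd, which diverts that route away from NAD, was at 54.8 to 84.7 CPM in young mice and at 4.05 to 22.9 CPM in aged IgG2a-injected mice, and fell by 2.48 on the log2 scale (SE 0.40, edgeR adjusted p = 0.00873). Qprt, which makes nicotinic acid mononucleotide from quinolinate, went from 18.1 to 25.6 CPM in young mice to 6.64 to 13.9 CPM and fell by 1.21 (SE 0.21, adjusted p = 0.00997). Haao, the step before it, fell by 0.86 (SE 0.13, adjusted p = 0.00676). All aged IgG2a libraries lay below all young ones for these 3 genes, as for 9.74% of all genes tested. Kmo, Afmid, the nicotinamide riboside kinase gene Nmrk1 and the mitochondrial NAD carrier gene Slc25a51 were the others that fell.

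Cd38, which encodes an NAD-cleaving enzyme of immune cells, was at 14.4 to 19.0 CPM in young mice and 21.6 to 51.2 CPM in aged IgG2a-injected mice, and rose by 1.27 (SE 0.23, edgeR adjusted p = 0.0111). The lowest of these aged libraries was replicate 1, and the others held 41.5 to 51.2 CPM. Parp2 rose as well, by 0.74 (SE 0.21, adjusted p = 0.0375), while Parp1, the main consumer of NAD in DNA repair, was at 0.22 ± 0.15 (adjusted p = 0.308). Nampt, the rate-limiting enzyme of NAD salvage, was at 122 to 175 CPM in young mice, 124 to 175 CPM with IgG2a and 132 to 147 CPM with aPD1ab, and its log2 fold change was 0.12 ± 0.14 against young mice (adjusted p = 0.576). Nmnat1 (-0.34 ± 0.23) and Nadsyn1 (-0.31 ± 0.15) did not pass either over all libraries. Nnmt, which clears nicotinamide, was too low to be tested, with at most 0.327 CPM in any library. Without aged IgG2a replicate 1, 3 genes of the list were higher and 13 lower, beside 22.1% and 23.5% of all genes. Proximal tubule markers were lower in the same libraries, and their part in these differences was not tested. With the tubule score as a covariate and all libraries in, 0 of the 24 were called (6 at an unadjusted p under 0.05), where 0.176% of all genes were called and 15.8% had an unadjusted p under 0.05. The score and the group cannot be told apart in this comparison.

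Between the aged groups, 0 of the 22 NAD genes tested were called by edgeR over all mapped libraries (12 at an unadjusted p under 0.05, 7 by DESeq2, 18 by limma voom with sample quality weights). The same rules called 0%, 28%, 15.9% and 39.7% of all genes. The median log2 fold change of the list was 0.61, beside -0.011 for all genes tested. Without aged IgG2a replicate 1, 12 were higher and 3 lower with aPD1ab, beside 17.1% and 13.2% of all genes. Nmrk1 rose by 1.85 (SE 0.29, edgeR adjusted p = 0.00761), Qprt by 2.19 (SE 0.43, adjusted p = 0.0107) and Naprt, which starts the salvage of nicotinic acid, by 1.44 (SE 0.29, adjusted p = 0.0111). Parp2 fell by 0.67 (SE 0.13, adjusted p = 0.0107), Cd38 by 1.00 (SE 0.21, adjusted p = 0.0132) and Parp1 by 0.51 (SE 0.14, adjusted p = 0.0261). With the tubule score as a covariate, and all libraries in, 0 of the 22 were called (1 at an unadjusted p under 0.05), beside 0% of all genes (5.33% at an unadjusted p under 0.05), and the median was 0.0034. Here too the score and the group cannot be told apart. Against young mice, 2 of 24 were higher with aPD1ab, Naprt by 0.76 (SE 0.21, adjusted p = 0.0289) and Kynu by 1.46 (SE 0.45, adjusted p = 0.0423), and 0 were lower, beside 12.4% and 9.97% of all genes. Kynu ranges overlapped, at 3.02 to 6.83 CPM in young mice and 5.20 to 28.8 CPM with aPD1ab. Leaving out 1 library at a time gave 0 to 5 calls in this comparison. It was 0 without young replicate 1, 2, 3 or 4, where 15.3% to 16.9% of all genes were called.

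**Figure D5:**
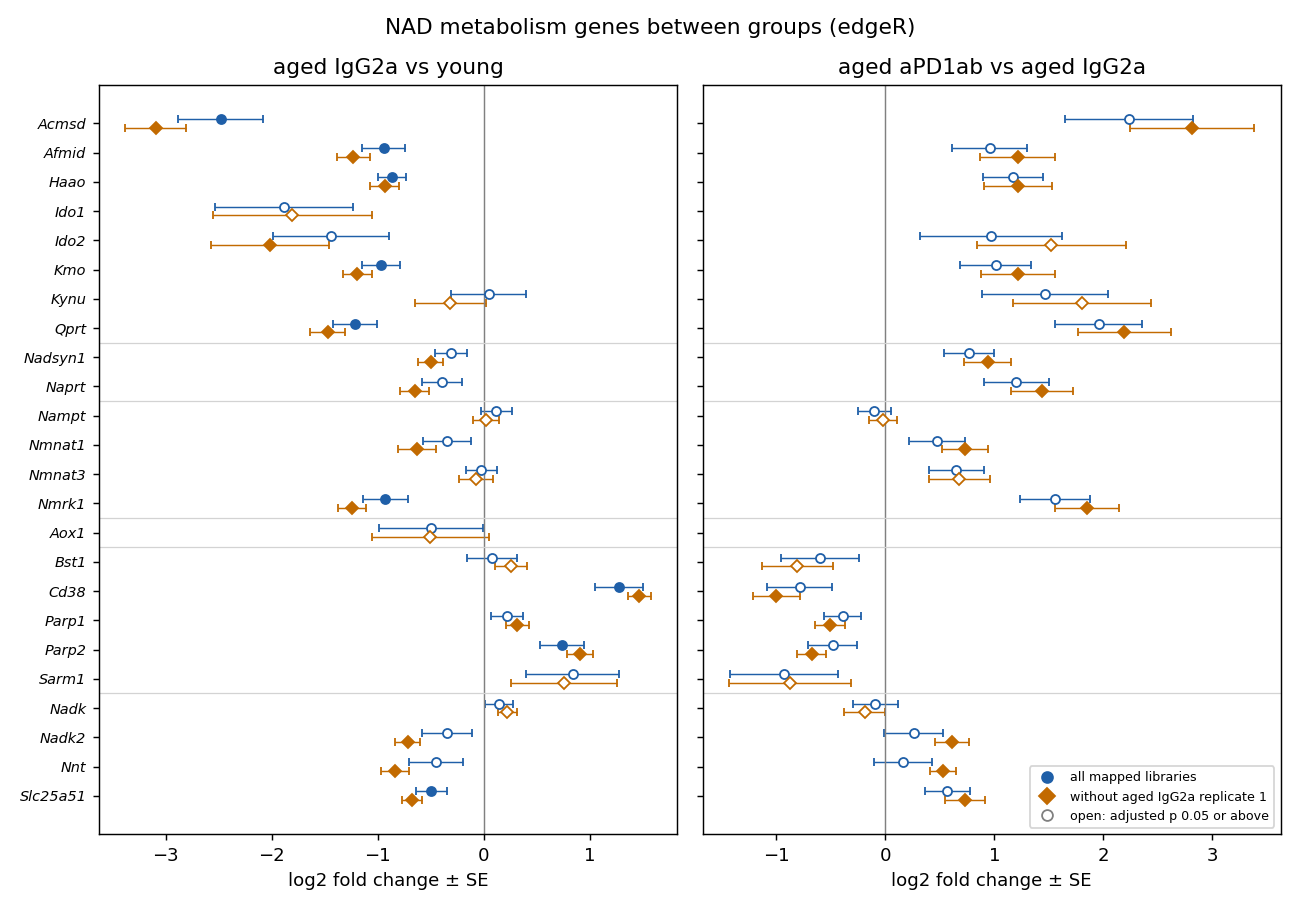
Log2 fold change ± SE (horizontal axes) of NAD metabolism genes by edgeR, for aged IgG2a against young and aged aPD1ab against aged IgG2a libraries, with all mapped libraries (circles) and without aged IgG2a replicate 1 (diamonds). Filled symbols have an adjusted p under 0.05, and gray lines part, from the top, the tryptophan route, the nicotinic acid route, salvage, nicotinamide clearance, consumers, and kinases and transport. Acmsd has the largest change on both sides, -2.48 and 2.24 with all libraries, and all circles between the aged groups are open.

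A list of 35 substrates and partners of sirtuins held 32 that could be tested. Against young mice, 4 were higher and 3 lower in aged IgG2a-injected mice, beside 9.05% and 8.38% of all genes, with a median log2 fold change of -0.21 for the list and 0.038 for all genes. The share of the list called was thus near that of all genes (17.4%). Leaving out any 1 of the 8 libraries other than aged IgG2a replicate 1 left 0 to 3 genes of the list called. Acss2, the cytosolic acetyl-CoA synthetase that SIRT1 activates, fell by 1.39 (SE 0.28, edgeR adjusted p = 0.0162), and Mlycd, the malonyl-CoA decarboxylase deacetylated by SIRT4, fell by 0.59 (SE 0.14, adjusted p = 0.0252). Myc rose by 0.99 (SE 0.25, adjusted p = 0.0301) and Nfe2l2, the regulator of antioxidant genes, by 0.70 (SE 0.18, adjusted p = 0.0313). The best known partners of SIRT1 were not called over all libraries. Ppargc1a, the coactivator of mitochondrial genes, was at -0.36 ± 0.26, Foxo1 at -0.22 ± 0.13, Foxo3 at 0.08 ± 0.13 and the SIRT1 inhibitor gene Ccar2 at 0.23 ± 0.10.

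Of 15 mitochondrial proteins on the list 13 could be tested. Of these, 1 (Mlycd) was lower than in young mice over all libraries and 12 without aged IgG2a replicate 1, where 8.38% and 23.5% of all genes were lower. Idh2, a SIRT3 target that supplies NADPH, was at 326 to 401 CPM in young mice, 524 CPM in aged IgG2a replicate 1, 216 to 229 CPM in the other 3 and 402 to 497 CPM with aPD1ab. Sod2, the superoxide dismutase activated by SIRT3, was at 139 to 173 CPM in young mice, 181 CPM in that library, 80.1 to 96.8 CPM in the other 3 and 153 to 217 CPM with aPD1ab. Over all libraries their log2 fold changes against young mice were -0.22 ± 0.26 (edgeR adjusted p = 0.568) and -0.39 ± 0.23 (adjusted p = 0.235). Without it Idh2 fell by 0.64 (SE 0.10, adjusted p = 0.000625) and Sod2 by 0.74 (SE 0.11, adjusted p = 0.000294), and 7 genes of the whole list were higher and 16 lower, beside 22.1% and 23.5% of all genes. Cps1, the SIRT5 target of the urea cycle, had no count in any library, which allows at most 0.0917 to 0.151 CPM per library (3 counts).

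Of the same list, 0 of 32 genes were called between the aged groups over all libraries by edgeR (12 at an unadjusted p under 0.05, 9 by DESeq2, 19 by limma voom with sample quality weights), and of all genes 0%, 28%, 15.9% and 39.7% were. Without aged IgG2a replicate 1, 13 were higher and 3 lower with aPD1ab, beside 17.1% and 13.2% of all genes. Idh2 rose by 1.02 (SE 0.15, edgeR adjusted p = 0.00668), Sod2 by 1.09 (SE 0.18, adjusted p = 0.00761) and Ndufa9, a subunit of complex I, by 0.87 (SE 0.15, adjusted p = 0.00777), whereas Bub1b, a mitotic checkpoint kinase gene, fell by 1.54 (SE 0.18, adjusted p = 0.0064). Against young mice, 5 were higher and 2 lower with aPD1ab, a share near that of all genes (12.4% higher and 9.97% lower). Rps19bp1, which encodes an activator of SIRT1, rose by 0.84 (SE 0.17, adjusted p = 0.00835) and Myc by 0.91 (SE 0.22, adjusted p = 0.0163), and Ep300 fell by 0.58 (SE 0.16, adjusted p = 0.0245) and Hif1a by 0.47 (SE 0.13, adjusted p = 0.0256).

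The 11 zinc-dependent deacetylases, which use no NAD, had medians near those of all genes, 0.021 against young mice and 0.020 between the aged groups (log2 fold change), beside 0.038 and -0.011. None was called between aged IgG2a and young mice by edgeR over all libraries (2 at an unadjusted p under 0.05, 1 by DESeq2, 2 by limma voom with sample quality weights) or between the aged groups (2 at an unadjusted p under 0.05, 1 by DESeq2, 3 by limma voom with sample quality weights). The shares of all genes by the same 4 rules were 17.4%, 36.2%, 28% and 46.5% in the first comparison and 0%, 28%, 15.9% and 39.7% in the second. Without aged IgG2a replicate 1, Hdac6 fell by 0.54 (SE 0.09, edgeR adjusted p = 0.000608) and Hdac9 rose by 1.16 (SE 0.23, adjusted p = 0.0025) against young mice, 2 of 11 where 45.6% of all genes were called. With aPD1ab against IgG2a in the same libraries, Hdac6 rose by 0.77 (SE 0.18, adjusted p = 0.0172) and Hdac9 fell by 1.61 (SE 0.39, adjusted p = 0.0199), 2 of 11 beside 30.4%. Hdac3 was the 1 gene of the 11 called between aPD1ab and young mice, higher by 0.40 (SE 0.10, adjusted p = 0.0222), where 22.4% of all genes were called.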

How the data were processed

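Bulk mRNA-Seq of the podocyte fraction was analysed from the table of reads per Ensembl gene that the authors deposited, which holds whole-number counts without normalization. The submitters' processing notes name HISAT2, featureCounts and mm10 (GRCm38); their versions and the strand setting are not given in the sources used here. Columns were tied to groups by the numbers on the study's principal component plot of podocyte fractions (13 columns), and 2 other columns were not used. Which labelled sample each column is was not known, so replicate numbers follow the column numbers. Each library is from a separate mouse.

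Symbols and positions came from GENCODE M21. Each pair of groups was fitted in R 4.3.3 with edgeR 4.0.16 (quasi-likelihood, robust, TMM, filterByExpr, Benjamini-Hochberg over all genes tested), with a call at an adjusted p under 0.05 and no fold threshold. CPM used TMM over 13 libraries, and log2 CPM a prior count of 2. Values after ± are SEs of the fits or SDs over libraries, and both include the spread between mice. Floors (3 counts) cover counting error only. The fits were tested on simulated counts with the same spread set for all genes. The simulation held no library apart from its group and no difference in cell mix, so it does not cover either. Alternatives were DESeq2 1.42.0, limma 3.58.1 (voom), other scaling and filtering, a joint fit, a tubule score covariate and leaving out each library. Named were all sirtuin genes, fixed genes of each list, up to 4 genes per list and comparison with the smallest p among those called, and the 2 genes most like each sirtuin gene. The genes and lists were chosen with earlier results of these data known. A fixed gene of the target list is not reported here.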

Additional observations from a re-analysis of the deposited data

Results flagged for a closer look

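In 21 sets of values (7 sirtuin genes in 3 groups), the highest and lowest library of each was tested for its distance to the others, which chance alone marks in about 1 of 20 sets. It marked 1, Sirt3 in aged IgG2a-injected mice, where replicate 1 held 34.2 CPM and the other 3 libraries 13.1 to 16.2 CPM. The gap to the nearest of these was 0.855 of the whole range of the group. The same library was at the high end for Sirt5 (12.4 CPM) and at the low end for Sirt7 (39.6 CPM), without passing that test. Its proximal tubule markers summed to 7861 CPM and those of the others to 1528 to 2372 CPM, and the part of this in the Sirt3 value was not tested.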

How the results depend on the processing

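By edgeR over all mapped libraries 0 sirtuin genes were called in each comparison. Other scaling, no filter on low counts and a joint fit also gave 0 for aged IgG2a against young mice, whereas DESeq2 gave 2 and limma voom with sample quality weights gave 5. Between the aged groups DESeq2 gave 1, the joint fit 1 and limma voom 3. For aPD1ab against young mice DESeq2 gave 1 and the tubule score covariate 3. Leaving out 1 library at a time gave 0 to 4 calls for aged IgG2a against young mice, 0 to 3 between the aged groups and 0 to 1 for aPD1ab against young mice, and the highest count came without aged IgG2a replicate 1 (4 and 3) and without aged aPD1ab replicate 3 (1, Sirt2).

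With the tubule score as a covariate the log2 fold change against young mice turned to 0.44 for Sirt3, 0.24 for Sirt4, 0.62 for Sirt5 and -0.15 for Sirt7 in aged IgG2a-injected mice. Between the aged groups it turned to -0.026 for Sirt3, -0.039 for Sirt5, -0.13 for Sirt2 and 0.26 for Sirt7. The score was the mean log2 CPM of the markers. The markers summed to at most 7861 CPM in aged IgG2a libraries and to at least 8044 CPM in all others, so the score and the group cannot be told apart, and the cause was not tested. In the first comparison the SEs with the score were 0.15 to 0.43, and that of Sirt3 was 0.19 with it and 0.25 without it. Sirt6 against young mice turned to -0.032 with aPD1ab under limma voom. Leaving out 1 library at a time moved it from -0.010 to 0.27 there and from -0.27 to 0.10 between the aged groups, where Sirt7 moved from -0.17 to 0.047 and Sirt2 from -0.041 to 0.17. Of 182 log2 fold changes with 1 library left out, 167 kept their direction and side of the threshold, 8 passed the threshold and 7 turned. Under the other alternatives it was 101, 16 and 9 of 126.

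With the longest transcript as the length, 3 of 7 genes kept their place in young and 5 in aPD1ab libraries, and without replicate 1 it was 4 in aged IgG2a libraries. No paired analysis applied, because the groups are of separate mice and the replicate numbers pair nothing. Sirt4 and Sirt5 had 103 to 422 counts a library, and the SE of their log2 fold changes over all mapped libraries was 0.13 to 0.25.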
